A study of Mus musculus with 24 samples.

Results

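The genes described here are 55 genes of mitosis, the spindle and the kinetochore, followed in dermal papilla (DP) cells of the mouse hair follicle. They were taken by symbol from a list that was drawn up with earlier results of these data known, and each of the 55 was found once among the 25755 genes of the tables. The DP is a condensed group of mesenchyme that sits inside the follicle bulb and signals to the epithelium. YFP-positive DP cells were sorted by FACS from back skin of individual mice, to a purity of about 90% per the study's methods, and their ribosome-depleted RNA was sequenced. The control and the dM1/2 mutant were compared at postnatal day 20 (P20, first telogen, the resting phase of the hair cycle), P24 (early anagen, the growth phase), P28 (mid anagen) and P60 (second telogen), with 3 mice of each genotype at each age and 24 libraries in all. The dM1/2 mice carried Cor-cre/+ with Hdac1Flox/Flox and Hdac2Flox/Flox, so that the histone deacetylases Hdac1 and Hdac2 were ablated where Corin drives Cre, which is the DP after birth. Controls carried Cor-cre/+ too, with 1 of several combinations of floxed and wild-type alleles that left at least 1 intact allele among these 2 genes; a mouse homozygous for floxed Hdac1 and heterozygous for floxed Hdac2 counted as a control, and the labels do not give the combination of each library. Per the methods, P20 mice were females, P24 and P28 mice were males and both sexes were analysed at P60, so that sex and hair-cycle stage cannot be told apart here.

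Mitosis begins when the kinase Cdk1, bound to cyclin B, is freed of inhibitory phosphates. Chromosomes are then condensed by condensin and topoisomerase II, and their kinetochores are caught by spindle microtubules that kinesin motors slide and shorten. A checkpoint holds the cell until every kinetochore is attached, after which the anaphase-promoting complex, a ubiquitin ligase, has securin and cyclin B destroyed. Most of these genes are transcribed late in the cell cycle and are kept silent in resting cells. Promoter elements named CHR and CCAAT box take part in this timing. The DP is known as a tissue whose cells seldom divide.

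Because these shared elements are a property of the genes that does not depend on their levels, promoter stretches of 6 genes are shown first, 5′ to 3′ on the gene's strand, each with the 140 bases before the RefSeq start (GRCm38.p6). Cdk1, Cdc20, Espl1, Kif11 and Top2a are shown as genes with large changes described below, and Cdc25a as one with a small change. The 6 were picked with their changes known, so they are examples and do not relate a CHR to the size of change. Capitals mark matches to the CHR (TTTGAA or TTCGAA), the CCAAT box (CCAAT) and an E2F element (TTTGGCGC, TTTGCCGC, TTTCGCGC or TTTCCCGC), on either strand, so that a CHR can also read TTCAAA and a CCAAT box ATTGG.
Cdk1 (chr10:69352913-69353052, strand −): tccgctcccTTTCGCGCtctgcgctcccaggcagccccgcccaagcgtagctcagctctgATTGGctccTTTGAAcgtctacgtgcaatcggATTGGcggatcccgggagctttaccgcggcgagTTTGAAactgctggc
Cdc20 (chr4:118437344-118437483, strand −): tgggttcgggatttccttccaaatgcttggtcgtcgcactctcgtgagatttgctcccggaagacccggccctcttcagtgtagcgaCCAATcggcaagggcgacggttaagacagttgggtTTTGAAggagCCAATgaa
Espl1 (chr15:102296153-102296292, strand +): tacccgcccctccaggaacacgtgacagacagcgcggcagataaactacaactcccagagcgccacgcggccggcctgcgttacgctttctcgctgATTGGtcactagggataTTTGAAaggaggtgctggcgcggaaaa
Kif11 (chr19:37376242-37376381, strand +): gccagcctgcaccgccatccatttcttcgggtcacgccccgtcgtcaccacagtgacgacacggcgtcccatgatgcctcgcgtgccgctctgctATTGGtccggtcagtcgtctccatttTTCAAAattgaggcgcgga
Top2a (chr11:99024190-99024329, strand −): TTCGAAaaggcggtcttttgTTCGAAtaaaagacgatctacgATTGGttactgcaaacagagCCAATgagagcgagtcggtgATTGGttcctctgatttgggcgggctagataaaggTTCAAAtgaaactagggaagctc
Cdc25a (chr9:109875439-109875578, strand +): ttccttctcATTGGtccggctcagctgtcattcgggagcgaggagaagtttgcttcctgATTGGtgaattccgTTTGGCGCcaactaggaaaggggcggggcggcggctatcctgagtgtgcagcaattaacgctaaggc
In Cdk1, Cdc20, Espl1, Kif11 and Top2a a CHR lies close to the start, downstream of at least 1 CCAAT box. The stretch of Cdc25a holds 2 CCAAT boxes and an E2F element but no CHR.

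Of the 55 genes, 45 had a promoter window of 300 bases (250 before to 50 after the start) in the RefSeq table. A CHR was found in 33 of these 45 windows (73.3%), beside 19.5% of the windows of all 27025 genes. A CCAAT box was found in 34 (75.6%, beside 38.0% of all), and at least 2 of them in 23 (51.1%, beside 12.1%). Both elements were in 28 windows (62.2%, beside 7.73%), and the E2F element was in 5 (11.1%, beside 2.33%). These are matches of letters, not measured sites. At P28 the median log2 fold change between dM1/2 and control, described below, was 3.15 for the 33 genes with a CHR and 2.96 for the 12 without, with ranges that overlapped (0.51 to 4.33 and 0.60 to 4.00). Ncapd2 (0.51) and Bub3 (0.82) had a CHR and small changes, and Gtse1 (4.00) and Ccnb1 (3.77) had large changes without one.

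Reads on genes numbered between 8171944 and 13369732 per library in the telogen libraries and between 35469841 and 49331751 in the anagen libraries. Values are normalized reads (reads scaled by 1 size factor per library), so that a single read is worth more in a telogen library than in an anagen library, and where a gene had 0 reads, up to 3 are allowed by counting error. Hdac1 stood at 675, 668 and 668 normalized reads in P24 controls and at 209, 188 and 116 in P24 dM1/2 (log2 fold change -2.01 ± 0.22 (SE), limma adjusted p = 0.0017). At P20 it stood at 375, 511 and 505 in controls and at 216, 370 and 270 in dM1/2, without overlap. At P60 it overlapped between the genotypes, at 506, 360 and 376 in controls and 371, 347 and 318 in dM1/2. At P28 it was 214, 529 and 105 in the libraries labelled control and 190.2, 149 and 126 in dM1/2. The libraries labelled P28 control 1 and P28 control 3 were therefore near the dM1/2 level of Hdac1, below all dM1/2 libraries for control 3 and slightly above them for control 1, and P28 control 2 was well above. "P28 control" below means the libraries with this label, and results at P28 are also given with P28 control 2 as the lone control. A lone control gives no spread of its own and is assumed to vary like the libraries of the other groups, so that those tests say little about the spread between control mice. Hdac2 did not pass the test at any age, but reads were summed over the whole gene, including what recombination leaves, and check nothing. The 12 DP markers (among them Vcan, Hhip, Wif1 and Corin) had reads in every library, and their sum lay between 137913 and 448575 normalized reads in the anagen libraries. Among P28 controls, control 2 had the lowest DP marker sum (153494, against 283994 and 448575). Its summed immune (1084, against 509 and 173), dermal sheath (9167, against 6770 and 3288) and keratinocyte markers were the highest. Its endothelial and melanocyte sums lay between those of controls 1 and 3. The part of these differences in the results was not tested.

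**Figure D1:**
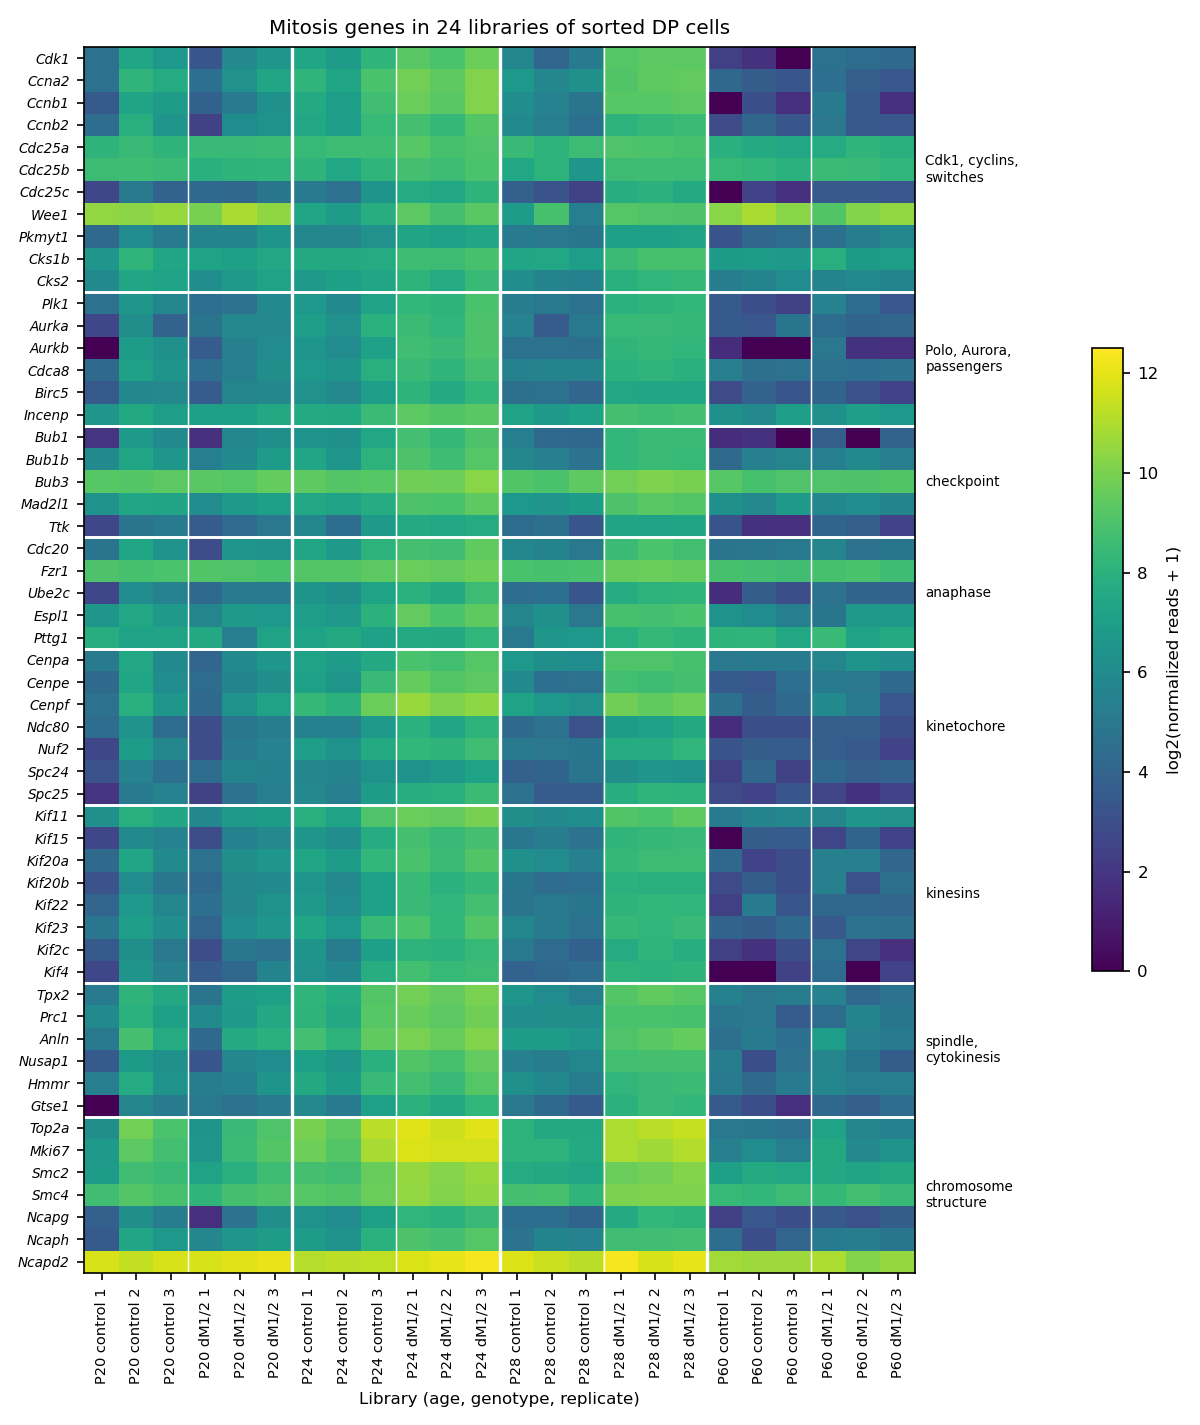
Levels of the 55 mitosis genes in 24 libraries of sorted DP cells. Rows are genes ordered by role, columns are libraries by age, genotype and replicate, and colour is log2(normalized reads + 1). The 6 columns of P24 and P28 dM1/2 are the brightest for most genes, the P60 columns are the darkest, and Wee1 is brightest in telogen, apart from P60 dM1/2 1.

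The mitosis genes of control DP cells changed over the hair cycle, with the highest mid value of their median in early anagen and the lowest in second telogen. In an F test of limma over the 12 control libraries, 50 of the 55 genes differed between the 4 ages, beside 49% of all 14066 genes tested. Bub3, Cks1b, Cdca8, Nusap1 and Gtse1 did not pass, and the count was 31 without P24 control 3. The median over the 55 genes was 24.1, 162 and 88.9 normalized reads in the P20 controls, 151, 107 and 248 at P24, 53.5, 46.8 and 33.4 at P28, and 18.9, 16.7 and 20.8 at P60. P20 therefore spanned a wide range, which overlapped P24 and P28, while P24, P28 and P60 were apart. In bulk RNA, more dividing cells and more RNA per cell cannot be told apart.

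Single steps of this course were less firm than the course as a whole. From P20 to P24, Cenpf, Kif20b and Aurka rose in controls and Wee1 fell, beside 32.7% of all genes called in either direction (17.1% as higher), and the median change of the 55 genes was 1.30 on the log2 scale. The count of 4 became 22 without P20 control 2 and 8 without P28 control 3, 2 without P24 control 1, and 1 without P20 control 1, P20 control 3 or P24 control 3. Between P24 and P28 the median change was -1.84, and 49 of the 55 genes were lower in every P28 control than in every P24 control, beside 14.7% of all genes. Prc1, Bub1b, Kif11, Kif23 and Ncapg passed the limma test there, all lower, beside 2.63% of all genes called lower and 5.64% called in either direction. This count was 18 with edgeR and 43 with DESeq2, all lower. Of all 14066 genes, edgeR with TMM scaling called 527 lower and DESeq2 993, against 370 with limma. The count of 5 was 0 without P20 control 3, P24 control 1 or P24 control 3, 1 without P28 control 1 or P28 control 2, and 2 or 3 without P28 control 3 or any single P60 control. It was 25 without P20 control 1 and 8 without P20 control 2. With P28 control 2 as the lone P28 control, no gene passed as lower and Wee1 passed as higher, beside 3.01% of all genes called higher with all controls. From P28 to P60, 15 genes fell and Wee1 and Pttg1 rose, beside 30% of all genes called. That count was between 8 and 26 when each library was left out (8 without P28 control 1, 9 without P60 control 2, 11 without P60 control 3 and 26 without P20 control 1), and 2 with P28 control 2 alone.

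The genes differed in how deep they went in controls. Top2a, the topoisomerase that untangles chromosomes, stood at 72.3, 923 and 496 normalized reads at P20, 976, 665 and 2387 at P24, 269.7, 183 and 193 at P28 and 31.5, 28.6 and 25.4 at P60. Mki67, which coats mitotic chromosomes and encodes the Ki-67 antigen, followed with 107, 655 and 430.2, then 850.4, 560.3 and 1864, then 271, 274 and 198 and 42, 66.7 and 39.2. Both were high in P24 control 3 and P20 control 2 and low in P20 control 1, and neither had a P60 value inside the range of another age. Across the 55 genes, P20 control 1 was the lowest P20 control for 47 genes, P20 control 2 the highest for 47, P24 control 2 the lowest P24 control for 50 and P24 control 3 the highest for 53. Fzr1, which keeps the anaphase-promoting complex active after division and in resting cells, stayed between 399 and 651 normalized reads in all 12 controls. Wee1, the kinase that holds Cdk1 inactive, was low where most of the others were high: it stood at 1409, 1269 and 1537 at P20, 165, 113 and 218 at P24, 114, 462 and 41 at P28 and 1241, 1921 and 1261 at P60. Its telogen controls were all above its anagen controls. Wee1 overlaps 1600010M07Rik on the opposite strand, and the strand setting of the counting is not given in the sources used here. Others of the 55 genes share this limit, among them Cdc25c, Bub3, Cdc20, Fzr1, Kif20a, Ccna2 and Kif4, which also overlap genes on the opposite strand.

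**Figure D2:**
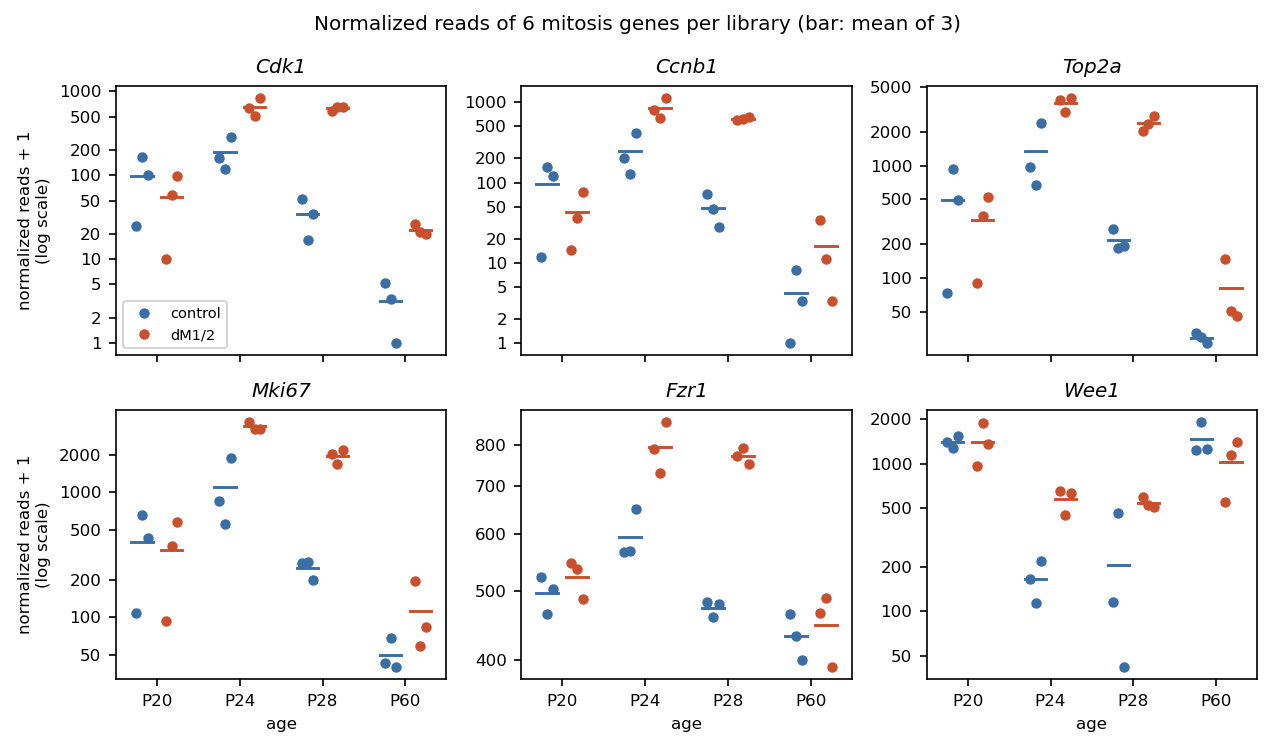
Normalized reads plus 1 (log axis) of 6 mitosis genes by age, with 1 dot per library, blue for control and orange for dM1/2, and a bar at the mean of 3. Cdk1, Ccnb1, Top2a and Mki67 of dM1/2 stand above every control at P24 and P28 and overlap the controls at P20. Fzr1 moves within a narrow range, and Wee1 is higher in telogen than in anagen for every control.

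In dM1/2 DP cells the mitosis genes were higher than in control at both anagen ages, and none passed the test at either telogen age. Hdac1 itself overlapped between the genotypes at P60, as given above. At P24, 50 of the 55 genes passed the test as higher and 0 as lower, beside 14.8% of all 14028 genes called higher. The median log2 fold change of the 55 was 1.63, with a range of 0.42 to 2.32, beside -0.01 over all genes. In 50 of the 55 every dM1/2 library was above every control, beside 23.8% of all genes. At P28, 53 passed as higher and 0 as lower, beside 20% of 14126 genes called higher, with a median of 3.07 and a range of 0.51 to 4.66, beside 0.00 over all genes. There, 54 of the 55 did not overlap, beside 28% of all genes. Comparisons within an age were tested with limma on log2(normalized reads + 1), 3 against 3 libraries, with Benjamini-Hochberg adjustment over all genes tested and a threshold of 0.05. Of the 55 genes, 48 passed at both ages.

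The count at P24 depended on the libraries and on the fit. It was 23 without P24 dM1/2 3, 30 without P24 dM1/2 1, 33 without P24 control 2 and 27 in a fit that shared the spread of all 24 libraries, with all called genes higher in each case. Calls also fell over all genes: 2073 were called higher in the main fit, and 1310, 1296, 1236 and 1920 in these fits, in the same order. Ccnb2, Hmmr, Kif23, Pttg1 and Spc24 did not pass at P24. At P28 the count was between 50 and 54 when each library was left out, and Wee1 and Ncapd2 did not pass. It was 52 with P28 control 2 as the lone control, a fit whose spread comes from the 3 dM1/2 libraries alone. Over 13 alternatives at P24 and 14 at P28, all 55 genes kept a positive log2 fold change, 15 passed in each alternative at P24 and 50 in each at P28.

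**Figure D3:**
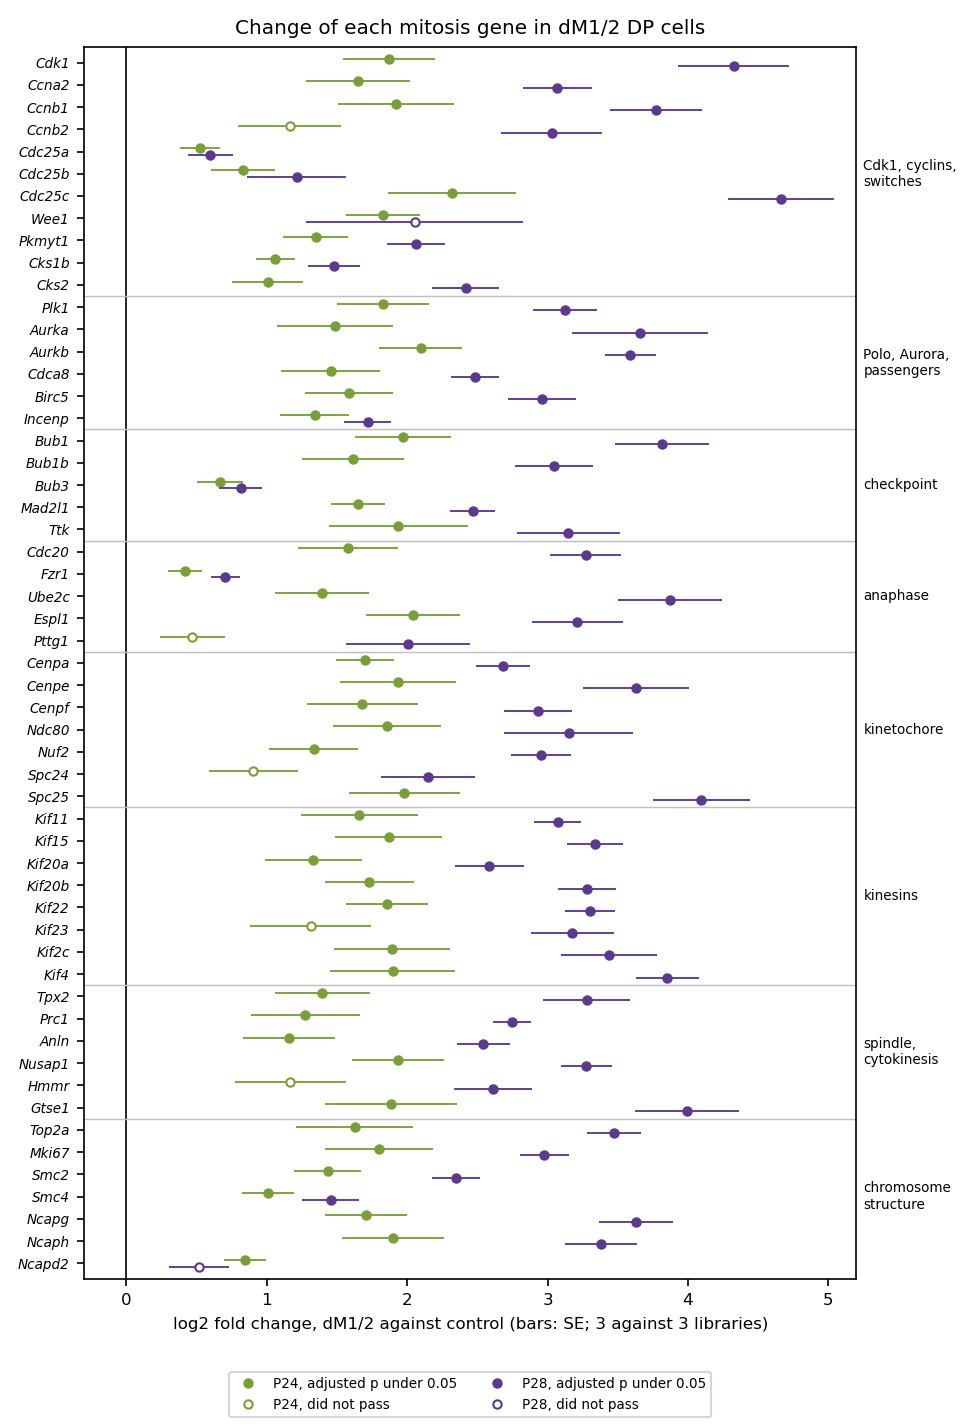
Log2 fold change of each mitosis gene between dM1/2 and control at P24 (green) and P28 (violet), with bars for the SE of 3 against 3 libraries; filled points passed the limma test and open points did not. All points lie to the right of 0, Cdc25c, Cdk1, Spc25 and Gtse1 lie farthest to the right at P28, and Cdc25a, Bub3, Fzr1 and Ncapd2 stay below 1.

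Of the 11 genes of the Cdk1 kinase, its cyclins and its switches, 10 passed as higher at each anagen age. Cdk1 itself, the kinase that drives entry into mitosis, stood at 161, 117 and 284 normalized reads in P24 controls and 638, 503 and 828 in P24 dM1/2. At P28 it was 51.8, 16 and 33.4 in controls and 583, 659.9 and 644 in dM1/2. All dM1/2 libraries were above all controls at both ages, with log2 fold changes of 1.87 ± 0.33 (SE), limma adjusted p = 0.0067 at P24 and 4.33 ± 0.39 (SE), limma adjusted p = 0.00061 at P28. Its partner cyclin B1, Ccnb1, moved from 201, 125 and 407 in controls to 804, 628 and 1119 in dM1/2 at P24, and from 70, 46.1 and 27.3 to 604, 614 and 649 at P28 (log2 fold change 3.77 ± 0.33 (SE), limma adjusted p = 0.0005). The dM1/2 values of Ccnb1 at P28 were close to each other while the controls spread. Of the other cyclins at P24, Ccna2 passed (1.65 ± 0.37 (SE), limma adjusted p = 0.016) and Ccnb2 fell just short (1.16 ± 0.37 (SE), limma adjusted p = 0.052). The 2 genes were not tested against each other.

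The switches that act on Cdk1 did not share a size of change. Cdc25c, 1 of 3 phosphatases that remove the inhibitory phosphates of Cdks, had the largest log2 fold change of the 55 genes at both ages. It stood at 35.2, 24.1 and 88.9 in controls and 203, 174 and 282 in dM1/2 at P24, and at 13, 8.33 and 4.55 and 223, 264 and 198 at P28 (4.66 ± 0.38 (SE), limma adjusted p = 0.00043). Cdc25c was thus low in controls, and all dM1/2 libraries of P24 and P28 lay above all controls of their age. The phosphatase Cdc25a was at 348, 269.6 and 376 in P28 controls and 528, 492 and 471 in dM1/2, with a log2 fold change of 0.60 ± 0.16 (SE), limma adjusted p = 0.026. Cdc25b had 1.21 ± 0.35 (SE), limma adjusted p = 0.035 at P28, and 0.50 with P28 control 2 as the lone control.

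Of the kinases that oppose Cdc25, Wee1 passed at P24 only. It stood at 656, 448 and 628 in P24 dM1/2 (1.83 ± 0.26 (SE), limma adjusted p = 0.0034) and at 591, 526 and 510.3 in P28 dM1/2 (2.05 ± 0.78 (SE), limma adjusted p = 0.081). At P28 the control 2 value of 462 lay close to the dM1/2 values, and the other controls lay far below them; without P28 control 2 the log2 fold change was 2.97 (limma adjusted p = 0.0024), and with it as the lone control 0.23. The anagen dM1/2 values of Wee1 lay below those of all P20 libraries, while P60 dM1/2 1 lay within their range. Pkmyt1, the membrane-bound relative of Wee1, passed at both ages (1.35 ± 0.23 and 2.06 ± 0.21 on the log2 scale, limma adjusted p = 0.0064 and 0.0008).

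The small Cdk-binding proteins Cks1b and Cks2 passed at both anagen ages. Cks1b was at 163, 177 and 125 in P28 controls and 372, 458 and 465 in dM1/2 (1.48 ± 0.19 (SE), limma adjusted p = 0.0016). Cks2 was at 69.6, 47.4 and 44.7 and 239.7, 302 and 325 (2.42 ± 0.24 (SE), limma adjusted p = 0.00075). Neither gene had overlapping groups at P28, and Cks2 was lower than Cks1b in P28 controls on this scale, which does not correct for gene length.

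All 6 genes of the polo and Aurora kinases and the chromosomal passenger complex passed as higher at both anagen ages, with medians of 1.54 at P24 and 3.04 at P28. Plk1, the polo kinase of centrosome and kinetochore assembly, stood at 99.8, 63.3 and 144 and 312, 282 and 474 in control and dM1/2 at P24, and at 38.3, 32.7 and 24.7 and 254, 282 and 312 at P28 (3.13 ± 0.23 (SE), limma adjusted p = 0.00032). Aurkb, the kinase of the passenger complex that corrects faulty attachments, stood at 94.4, 64.3 and 141 and 399.8, 338 and 507 at P24 (2.09 ± 0.30 (SE), limma adjusted p = 0.0033). At P28 Aurkb was at 23.9, 25.6 and 23.1 in controls and 287, 324 and 297 in dM1/2 (3.59 ± 0.18 (SE), limma adjusted p = 0.00016). Its controls at P28 lay close together, and the passenger subunits were also higher in dM1/2. Birc5, which encodes survivin, was at 23.5, 25 and 16.3 and 179, 168 and 170.2 at P28 (2.96 ± 0.24 (SE), limma adjusted p = 0.00044). Cdca8 and Incenp, the other passenger subunits, had log2 fold changes of 2.48 ± 0.17 and 1.72 ± 0.17 (limma adjusted p = 0.0003 and 0.00073). Incenp, at 144, 108 and 139 in P28 controls, had the smallest change of the 6. Aurka, the Aurora kinase of spindle poles, was at 45.7, 10.9 and 31.9 in P28 controls and 334, 343 and 318 in dM1/2 (3.66 ± 0.48 (SE), limma adjusted p = 0.0019).

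All 5 genes of the spindle assembly checkpoint passed at both ages, but Bub3 changed little. Bub1, a kinetochore kinase of the checkpoint, stood at 83.2, 77.3 and 178 in P24 controls and 427, 317 and 519 in dM1/2, and at 40.5, 18.6 and 17.8 and 313, 372 and 364 at P28 (3.82 ± 0.33 (SE), limma adjusted p = 0.00053). Bub3, the adaptor that brings Bub1 and BubR1 to the kinetochore, stood at 544, 481 and 664 in P28 controls and 909.6, 1079.9 and 967 in dM1/2 (0.82 ± 0.15 (SE), limma adjusted p = 0.0073). Bub3 stayed at or above 467 normalized reads in all 24 libraries, whereas Bub1 of P60 controls had at most 1 read. Bub1b, which encodes BubR1, Ttk, the kinase that starts the checkpoint, and Mad2l1, the inhibitor of Cdc20, had log2 fold changes of 3.05 ± 0.28, 3.15 ± 0.37 and 2.47 ± 0.16 at P28, all past the threshold.

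Among the 5 genes of the anaphase-promoting complex and chromatid separation, the activators of the complex were far apart. Cdc20, its activator in mitosis, stood at 160.2, 107 and 274 in P24 controls and 450.0, 399 and 706 in dM1/2, and at 54.8, 47.4 and 31.1 and 369, 503 and 417 at P28 (3.27 ± 0.26 (SE), limma adjusted p = 0.0004). Fzr1, its activator outside mitosis, stood at 565, 567 and 651 and 789, 730.1 and 861 at P24 (0.42 ± 0.12 (SE), limma adjusted p = 0.042), and at 482, 459 and 479 and 771, 791 and 752 at P28 (0.70 ± 0.10 (SE), limma adjusted p = 0.003). The change of Fzr1 was small and its groups did not overlap at either age. Ube2c, the ubiquitin-conjugating enzyme of the complex, and Espl1, the protease separase that cuts cohesin, had 3.87 ± 0.37 and 3.21 ± 0.32 at P28 (limma adjusted p = 0.00069 and 0.0008). Espl1 was among the 3 largest at P24 (2.04 ± 0.34 (SE), limma adjusted p = 0.0054).
Pttg1, which encodes the separase inhibitor securin, did not follow Espl1 in controls. It stood at 151, 194 and 139 in P24 controls and 199, 183 and 300.0 in dM1/2, and the groups overlapped (0.47 ± 0.23 (SE), limma adjusted p = 0.18). At P28 it was 32.2, 97.3 and 100.1 in controls and 235, 322 and 278 in dM1/2 (2.0 ± 0.44 (SE), limma adjusted p = 0.013). P60 controls held 277, 291 and 179.8, a range that overlapped the P28 dM1/2 libraries.

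Of the 7 centromere and kinetochore genes, 6 passed at P24 and all 7 at P28. Cenpa, the histone H3 variant that marks centromeres, stood at 149, 121 and 188 in P24 controls and 479, 419.7 and 582 in dM1/2, and at 100.0, 73.7 and 66.7 and 536, 533 and 471 at P28 (2.68 ± 0.19 (SE), limma adjusted p = 0.00032). The 4 subunits of the Ndc80 complex, which binds microtubule ends, all rose at P28, with Spc25 at 4.10 ± 0.34, Ndc80 at 3.15 ± 0.46, Nuf2 at 2.95 ± 0.22 and Spc24 at 2.15 ± 0.34 on the log2 scale. Ndc80 was at 19.1, 25.6 and 7.58 in P28 controls and 115, 142 and 193 in dM1/2 (limma adjusted p = 0.0028), and Spc25 was at 23.9, 10.9 and 11 and 223, 291 and 271 (limma adjusted p = 0.00046). Spc24 did not pass at P24, where P24 control 3 (83.4) was above P24 dM1/2 1 (82.9) and the log2 fold change was 0.90 ± 0.32 (SE), limma adjusted p = 0.072. Cenpf and Cenpe, large proteins of the outer kinetochore, had 2.93 ± 0.24 and 3.63 ± 0.38 at P28, both past the threshold.

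All 8 kinesins passed at P28 and 7 at P24, within a narrower range than the other roles at P28 (2.59 to 3.85). Kif11, the motor that pushes spindle poles apart, stood at 224, 151 and 538 in P24 controls and 800.3, 729 and 995 in dM1/2, and at 70.9, 61.5 and 69 and 550.1, 505 and 669 at P28 (3.07 ± 0.17 (SE), limma adjusted p = 0.00019). P24 control 3 was well above the other P24 controls. Kif20a, a motor of cytokinesis, had the smallest change of the 8 at P28, from 76.6, 64 and 42.1 to 325, 384 and 374 (2.59 ± 0.25 (SE), limma adjusted p = 0.00069). Kif2c, which takes microtubule ends apart at centromeres, went from 32.6, 19.9 and 13.7 to 203, 286 and 224 (3.44 ± 0.34 (SE), limma adjusted p = 0.00078). The chromosome-arm motors Kif4 and Kif22 had 3.85 ± 0.22 and 3.30 ± 0.18, and Kif15, which supports Kif11, had 3.34 ± 0.20. Kif20b and Kif23, motors of the central spindle, had 3.28 ± 0.20 and 3.18 ± 0.30 at P28, while Kif23 did not pass at P24 (1.31 ± 0.43 (SE), limma adjusted p = 0.059).

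The 6 spindle-associated and cytokinesis genes passed at P28, and all but Hmmr at P24. Tpx2, the activator of Aurora A on spindle microtubules, stood at 289, 216 and 576 in P24 controls and 914, 711 and 1015 in dM1/2, and at 97.4, 63.4 and 41 and 562, 705 and 609 at P28 (3.28 ± 0.31 (SE), limma adjusted p = 0.00068). Anln, a scaffold of the cleavage furrow, was at 439, 268 and 696 and 1029, 785 and 1140.0 at P24 (1.16 ± 0.33 (SE), limma adjusted p = 0.036) and at 119, 115 and 91 and 530.1, 631 and 748 at P28 (2.54 ± 0.19 (SE), limma adjusted p = 0.00033). Anln did not overlap at either age, though P24 control 3 came close to P24 dM1/2 2. Gtse1, a microtubule-bound protein of late cell cycle, had 4.0 ± 0.37 at P28, and Nusap1, Prc1 and Hmmr, which bundle or bind spindle microtubules, had 3.28 ± 0.18, 2.75 ± 0.14 and 2.61 ± 0.28. Hmmr did not pass at P24 (1.17 ± 0.40 (SE), limma adjusted p = 0.066), where P24 control 3 at 349.7 was above P24 dM1/2 2 at 337.

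Of the 7 genes of chromosome structure, all passed at P24 and all but Ncapd2 at P28. Top2a stood at 3835, 2995 and 3973 in P24 dM1/2 (1.63 ± 0.42 (SE), limma adjusted p = 0.026) and at 2028, 2361 and 2748 in P28 dM1/2 (3.47 ± 0.19 (SE), limma adjusted p = 0.00019), against the control values given above. Mki67 was at 3643, 3207 and 3204 and 2022, 1668 and 2155 (2.98 ± 0.18 (SE), limma adjusted p = 0.0002 at P28). These genes, with Ncapd2, had the most reads of the 55 in anagen dM1/2. Smc2, the condensin ATPase shared by both condensins, was at 203, 194 and 166 in P28 controls and 807, 944 and 1149 in dM1/2 (2.35 ± 0.17 (SE), limma adjusted p = 0.00032), and its partner Smc4 had 1.45 ± 0.20. The condensin I subunits Ncapg and Ncaph had 3.63 ± 0.26 and 3.38 ± 0.26 at P28. Ncapd2, the other condensin I subunit measured, stood at 3666, 2917 and 2371 in P28 controls and 5099.7, 3448 and 4200.0 in dM1/2, with overlapping groups (0.51 ± 0.21 (SE), limma adjusted p = 0.1), and passed at P24 (0.85 ± 0.15 (SE), limma adjusted p = 0.0067). Ncapd2 hosts the small RNA gene Scarna10 on the same strand, and how reads there were divided is not given in the sources used here.

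In telogen no mitosis gene passed. At P20, 0 of 55 passed with limma, edgeR or DESeq2, beside 0.433% of all genes called with limma (0.0795% as lower). An unadjusted limma p under 0.05 was found for 1 of the 55 and for 2735 of all 13845 genes. Over all genes the 60 called with limma became 889 with DESeq2, 439 with a replicate block, 1530 without P20 control 1 and 0 without P20 dM1/2 3. The median log2 fold change was -0.31, and it lay between -0.93 and 0.25 when each library was left out, so it had no stable sign. The spread within groups was wide: Cdk1 stood at 24.1, 165 and 100.4 in P20 controls and 9.1, 57.5 and 98 in P20 dM1/2, and Bub1 at 2.68, 106 and 63.1 and 2.27, 53.1 and 74. The first replicate was the lowest of its group for 47 genes in controls and 48 in dM1/2. The SE of the log2 fold change of Cdk1 was 0.88 at P20, against 0.33 at P24.

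At P60 the genes were near the limit of the reads. Of the 55, 42 had a mean of at least 10 normalized reads and were tested; 0 passed with limma, edgeR or DESeq2, and 6 had an unadjusted p under 0.05. Some of the 42, such as Cdk1 and Ube2c, reached that mean through dM1/2 only, so no tally of directions over them is given. Over all genes 0 of 14042 (0%) passed with limma and 525 had an unadjusted p under 0.05, while DESeq2 called 32. The median over the 55 genes was 35.3, 27.7 and 23.5 normalized reads in P60 dM1/2, above the 3 controls given above. Cdk1 had only 2, 1 and 0 reads in P60 controls, too few for a firm fold, and 10, 8 and 8 in dM1/2. Bub1 had 1, 1 and 0 and 5, 0 and 6, Aurkb 1, 0 and 0 and 12, 1 and 1, and Kif4 0, 0 and 2 and 8, 0 and 2 reads, so that no fold is given for them. Kif20a was at 16.8, 4.77 and 6.92 normalized reads in controls and 42.9, 40.2 and 16.5 in dM1/2, and Cenpa was at 31.5, 35.7 and 34.6 and 50.5, 88 and 68.2. P60 dM1/2 1 was the highest dM1/2 library of this age for 33 of the 55 genes. It also had the most reads of the macrophage markers in this group, with Lyz2 at 389, 30.2 and 44.7 and Adgre1 at 88.4, 2.51 and 16.5 normalized reads. Its endothelial sum was 6079, against 2296 and 1207 in the other dM1/2 libraries, and its sums of dermal sheath markers (4173) and DP markers (18722) were the lowest of the 6 libraries of this age. The part of these differences in the result was not tested.

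**Figure D4:**
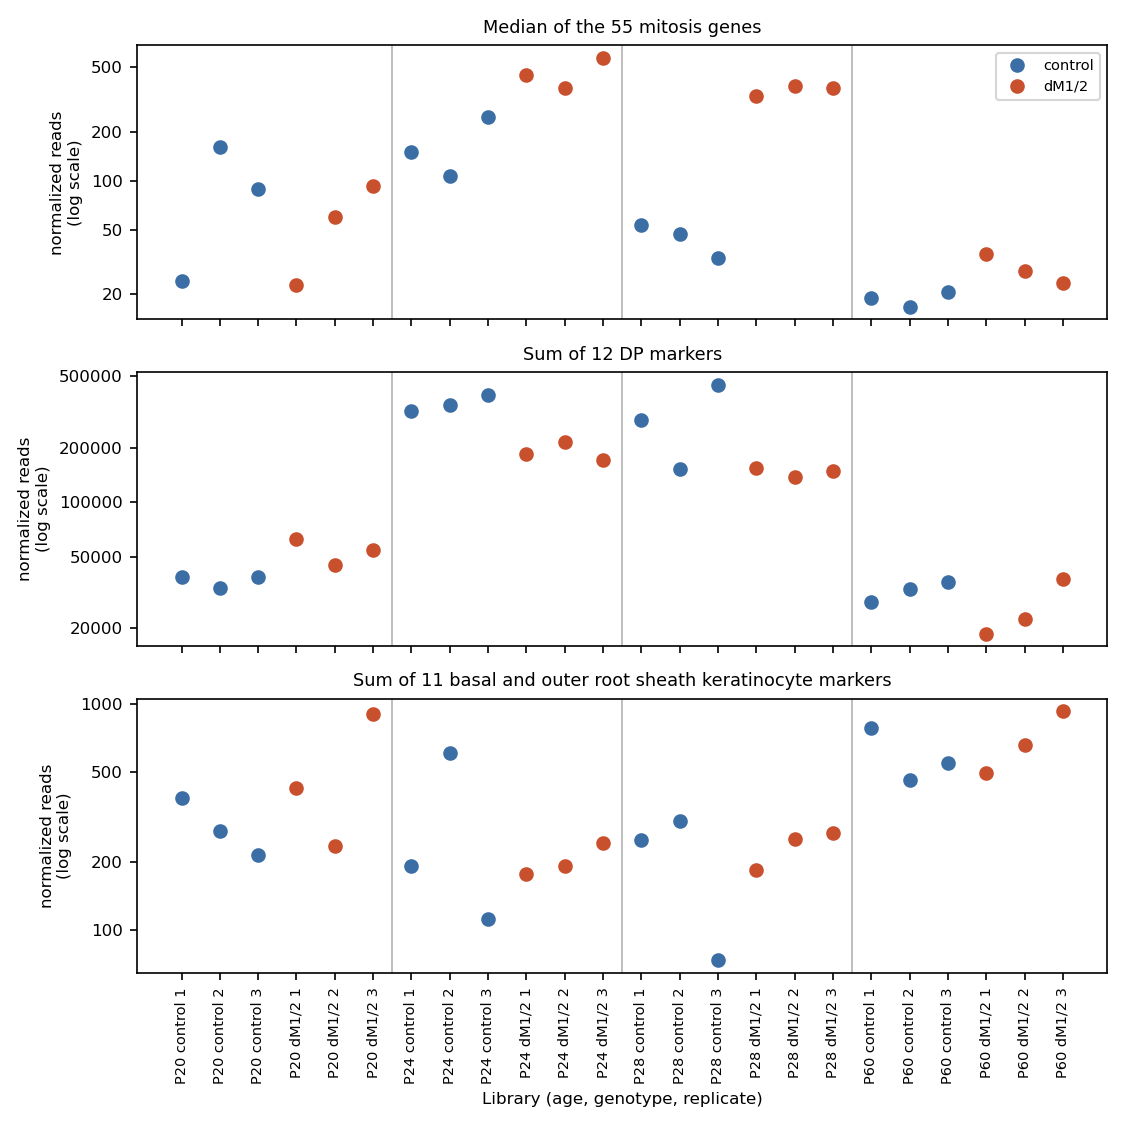
Median of the 55 mitosis genes (top), sum of 12 DP markers (middle) and sum of 11 basal and outer root sheath keratinocyte markers (bottom) in each library, in normalized reads on log axes, blue for control and orange for dM1/2. The mitosis median of anagen dM1/2 lies between 334 and 572 and that of anagen controls between 33.4 and 248, while these keratinocyte sums overlap between genotypes at P24 and P28; the matrix, inner root sheath and shaft markers, which are not plotted, do not overlap at P28.

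The mitosis genes also followed the hair cycle within dM1/2. In the F test over the 12 dM1/2 libraries, 54 genes differed between ages (59.9% of all genes), all but Pttg1. From P20 to P24, 52 rose and Wee1 fell, beside 40.4% of all genes called, with a median change of 3.18. Between P24 and P28 none of the 55 passed with limma or edgeR, beside 0.623% of all genes called with limma. DESeq2 called 1 of the 55 and 645 of all genes. An unadjusted limma p under 0.05 was found for 1 of the 55 and for 1532 of all 14277 genes. The median change was -0.34, and 21 genes were lower in every P28 library than in every P24 library, beside 11.2% of all genes. A fit on the 6 libraries of P24 and P28 alone called 2 as lower. From P28 to P60, 52 fell and Wee1 rose, beside 54.8% of all genes called (28.8% as lower), with a median change of -3.70.

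The effect of the genotype was tested for a difference between ages. Between P24 and P28 the log2 fold change grew for 54 of the 55 genes, with a median difference of 1.42. None of the 55 passed with limma or edgeR, and limma called 0.707% of all genes, 0.453% with the larger effect at P28. An unadjusted limma p under 0.05 was found for 44 of the 55 and for 1680 of all 14139 genes. DESeq2 called 26 of the 55, beside 546 of all genes. Limma called 7 without P24 control 2 (117 of all genes) and 1 without P28 control 1 or P28 control 2 (104 and 167 of all genes). Between the mean of both anagen effects and the mean of both telogen effects, 43 of the 55 genes differed, all with the larger effect in anagen, beside 16.1% of all genes called with the larger effect in anagen and 30.2% called in either direction. The median difference was 2.05, beside -0.03 over all genes, and the count lay between 35 and 52 when each library was left out. Spc25 (3.36 ± 0.76 (SE), limma adjusted p = 0.0024), Tpx2 (2.89 ± 0.62 (SE), limma adjusted p = 0.0017) and Ncapg (2.86 ± 0.73 (SE), limma adjusted p = 0.0058) had the largest differences. The 12 that did not pass were Anln, Aurkb, Bub1, Ccnb1, Cdc25a, Gtse1, Kif15, Kif20a, Kif20b, Kif4, Pkmyt1 and Spc24. At P60, Spc25 had 3, 2 and 4 reads in controls and 2, 1 and 2 in dM1/2. Ncapg had 2, 4 and 3 reads in P60 controls and 4, 3 and 5 in P60 dM1/2. Both genes were too low to be tested at P60 alone. The P60 part of their differences therefore rests on few reads, and the count of 43 includes them.

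Levels of the 55 genes were also compared per kilobase of exon. In P28 controls Ncapd2 was the highest at 476 normalized reads per kb, followed by Cks1b at 138, Fzr1 at 105, Bub3 at 80.4 and Cks2 at 77.9, and Cdc25c was the lowest at 1.76. In P28 dM1/2 Ncapd2, Cks2, Cks1b, Top2a and Cdc20 led, at 678, 418, 383, 264 and 230 normalized reads per kb. Ncapd2 and Wee1 were the highest in telogen controls, at 267 and 431 at P60. The genes with more reads per kb in P60 controls had smaller changes at P28: over the 55 genes Spearman's rho between that level and the P28 log2 fold change was -0.74 and Pearson's r on the log2 level was -0.80, a description across genes that share libraries. The pseudocount of 1 understates the change of low genes.

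Other genes of the same processes were read from 4 lists, 110 genes in all. Over all genes, 14.8% were called higher and 11.8% lower at P24, and 20% and 15.6% at P28. Beside these shares, of 34 other kinetochore and checkpoint genes 23 rose at P24 and 30 at P28, with none lower. Sgol2a, the protector of centromeric cohesin, had 3.92 ± 0.29 and Kntc1, a checkpoint protein of the kinetochore, 3.67 ± 0.21 on the log2 scale, both past the threshold. Of 36 other spindle, centrosome and cytokinesis genes, 25 rose at P24 and 33 at P28, with none lower, beside the same 14.8% and 20% of all genes called higher. The motor Kifc1, Depdc1b and the centriole gene Stil led at P28, with 3.96 ± 0.54, 3.88 ± 0.38 and 3.85 ± 0.25. The medians of these lists at P28 were 2.08 and 2.68.

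Of 26 other condensin, cohesin and anaphase genes, 9 rose and Anapc11 fell at P28, beside 20% of all genes called higher, and 6 rose and Anapc11 fell at P24, beside 14.8%; the median at P28 was 0.12. Esco2, the acetyltransferase that fixes cohesion in S phase, went from 13.5, 16 and 16.7 to 216, 259 and 249.7 (3.89 ± 0.22 (SE), limma adjusted p = 0.00019). Cdca5, which encodes sororin, had 3.57 ± 0.37, and Fbxo5, which encodes Emi1, an inhibitor of the anaphase-promoting complex, had 2.31 ± 0.24, both past the threshold. Anapc11, the RING subunit of that complex, stood at 531, 521 and 591 in P28 controls and 339, 417 and 370.1 in dM1/2 (-0.55 ± 0.13 (SE), limma adjusted p = 0.019), without overlap.

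Of 14 genes for transcription of mitotic genes, 5 rose at P24 and 7 at P28, with none lower. Over all genes 14.8% were called higher at P24 and 20% at P28. Mybl2, the Myb protein of the late cell cycle, went from 19.1, 16 and 15.9 in P28 controls to 189.8, 182 and 195 in dM1/2 (3.40 ± 0.21 (SE), limma adjusted p = 0.00023). Foxm1, a forkhead factor of mitotic genes, went from 112, 109.5 and 106 to 447, 430.2 and 546 (2.10 ± 0.15 (SE), limma adjusted p = 0.00032). Lin54, the subunit of the MuvB complex that binds the CHR, went from 291, 314 and 324 to 609, 627 and 629 (1.0 ± 0.11 (SE), limma adjusted p = 0.0011). All 3 had P28 groups apart from each other.

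Markers of other cells of the skin were read beside these results. Of 11 basal and outer root sheath keratinocyte markers, the summed level lay between 112 and 605 normalized reads in P24 controls and between 177 and 242 in P24 dM1/2, and between 73.6 and 304 and between 184 and 270 at P28. Krt5, a defining marker, was at 57.9, 64.7 and 6.45 in P28 controls and 11.5, 45.9 and 45.4 in dM1/2, with overlap. Dsp, which encodes a desmosome protein, was at 41.3, 62.8 and 15.5 and 90.4, 95.1 and 135, higher in all dM1/2 libraries, and the groups of the other 9 overlapped at P28. Of 9 markers of hair matrix, inner root sheath and shaft, the sum lay between 61.8 and 86.5 in P28 controls and between 331 and 501 in P28 dM1/2. Gata3 and Dlx3 made up 269 to 442 of the sum in P28 dM1/2 and 7.96 to 22.2 in P28 controls. The other 7 summed to between 33.4 and 61.4 in P28 dM1/2, against 39.6 to 74.3 in controls. Shh, a defining gene of the matrix, was at 0, 0 and 0 in P28 dM1/2 and at 0, 1.28 and 0 in P28 controls. It was thus at the floor in both genotypes and cannot tell them apart. The summed immune, endothelial, melanocyte and dermal sheath markers of P24 and P28 dM1/2 overlapped those of controls. The sum of the 12 DP markers was lower in P24 dM1/2 (171372 to 215201) than in P24 controls (320376 to 391627) and overlapped at P28. Corin, whose promoter drives the Cre, was at 41112, 30326 and 75255 in P28 controls and 4581, 4009 and 5005 in dM1/2. The DP markers did not move as a group at P28. Rspo3, Fgf7 and Fgf10 were also lower in every dM1/2 library than in every control. Prom1, Sox2 and Trps1 were higher in every dM1/2 library, with Sox2 at 385, 179 and 313 in controls and 704, 861 and 754 in dM1/2. The other DP markers overlapped at P28. The part of these differences in the levels of the mitosis genes was not tested.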

How the data were processed

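RNA of twice-sorted YFP-positive DP cells from 24 mice (3 per genotype and age) was ribosome-depleted and sequenced as directional single-end libraries. Per the methods, the authors used Trimmomatic for trimming and TopHat2 for alignment to mm10, then counted reads per Ensembl gene with HTSeq and normalized them with DESeq2. The deposited values are a signal: whole read counts divided by a size factor per library (100% of values were whole reads within 0.001 read). The authors' fold-change and p-value columns were not used.

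The 55 genes and the other lists were chosen with earlier results of these data known. Values were tested as log2(normalized reads + 1) with limma 3.58.1 (trend, R 4.3.3) where the mean over the fitted libraries reached 10 normalized reads, with Benjamini-Hochberg adjustment over all genes and a threshold of 0.05. Ages were fitted over the 12 libraries of a genotype, and differences of effects over 24. The fits were tested on simulated data. Alternatives were a pseudocount of 10, no filter, edgeR 4.0.16 and DESeq2 1.42.0 on the recovered reads, a replicate block, a single fit over all libraries, and leaving out each library. Fits with P28 control 2 as the lone P28 control and on P24 and P28 alone were chosen after seeing the data.

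Genes with values in each library were a set spread over the roles, the 3 largest and smallest changes at P24 and P28, and genes that missed the threshold; of other lists, up to 3 rises and falls at P28 were named, except for a result that is not reported here. Further genes shown with library values (Aurka and Incenp) were chosen after their values were seen. Limits of 3 reads cover counting error only. Mice were sorted individually, so p-values measure the spread between mice. Promoter windows came from RefSeq (GRCm38.p6), and levels per kb used exon length.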

Additional observations from a re-analysis of the deposited data

Results flagged for a closer look

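The effect of the genotype on mitosis genes differed between stages of the hair cycle. In the limma test of the difference itself, over all 24 libraries, 43 of the 55 genes had a larger log2 fold change between dM1/2 and control in anagen (P24 and P28) than in telogen (P20 and P60), beside 16.1% of all genes. The largest differences were those of Spc25 (3.36 on the log2 scale), Tpx2 (2.89) and Ncapg (2.86). At P60, Spc25 had 3, 2 and 4 reads in controls and 2, 1 and 2 in dM1/2. Ncapg had 2, 4 and 3 reads in P60 controls and 4, 3 and 5 in P60 dM1/2. Both genes were too low to be tested at P60 alone. The P60 part of their differences therefore rests on few reads, and the count of 43 includes them. Sex and sequencing depth go with the stage in these libraries, and their part in the difference cannot be told apart. Hdac1 also overlapped between the genotypes at P60 and not at P24, and the part of this in the difference was not tested.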

How the results depend on the processing

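All 55 genes kept a positive log2 fold change at P24 and P28 under every alternative run. The count at P24 (50) was 27 in the single fit over 24 libraries and between 23 and 54 when each library was left out. In controls, the count over the 4 ages (50) was between 31 and 53 when each library was left out. The P20 to P24 step (4) gave 7 with a pseudocount of 10, 8 with DESeq2 and 1 to 22 when each library was left out. The P24 to P28 step (5) gave 8 with a pseudocount of 10, 2 without a filter, 18 with edgeR under either scaling, 43 with DESeq2, 2 on the 6 libraries of P24 and P28, 1 with P28 control 2 as the lone P28 control and 0 to 25 when each library was left out. The P28 to P60 step (17) gave 2 with the lone control and 8 to 26 when each library was left out. In dM1/2 the P24 to P28 step (0) gave 1 with DESeq2 and 2 on 6 libraries. The difference of effects between P28 and P24 (0) gave 26 with DESeq2, 2 with the lone control and 0 to 7 when each library was left out. The cause of these differences was not tested. Replicate numbers are shared between genotypes, but deviations of same-numbered mice correlated between -0.39 and 0.30 and at no age were all 3 over 0.1; with the replicate block the counts were 51 at P24, 52 at P28 and 1 for the P24 to P28 step in controls. Depth limits P60, where the median of the 55 genes was 7 to 14 reads per library.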
